A study of Arabidopsis thaliana with 9 samples.

Results

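The 43 genes described here encode proteins that loosen or rebuild the plant cell wall: the whole family of xyloglucan endotransglucosylase/hydrolases, XTH1 to XTH33, and 10 alpha-expansins (EXPA1, EXPA3, EXPA4, EXPA5, EXPA6, EXPA8, EXPA10, EXPA11, EXPA15 and EXPA16). They were taken by locus from the 38202 genes of the deposited count table, by a rule that names genes and uses no measured value. The set was nevertheless chosen with earlier results of these data known, so its shares beside those of all genes are not blind to the data. The counts came from RNA sequencing of 9 libraries of Arabidopsis thaliana leaves, ecotype Columbia. Of these, 3 came from plants given silver nanoparticles (AgNPs), 3 from plants given silver ions (Ag+), and 3 carry the agent label CK, which was taken as the group without silver. All 3 groups shared the ecotype and a growth period of 6 days on MS salts, a common medium for seedlings, and no label gives a dose, a particle size or a length of exposure. The protocol mentions pooled RNA without saying whether replicate libraries stem from separate cultures, so p-values reflect only the spread between these libraries, which may be technical.

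Xyloglucan is a branched glucan that coats and tethers the cellulose microfibrils of the primary wall. XTH enzymes cut a xyloglucan chain and join the cut end to another chain, or in some members to water, and so rearrange or trim the network while a cell grows. Alpha-expansins have no such cutting activity; they let wall polymers slip past each other in an acid wall, which plasma membrane proton pumps provide. By sequence the XTH family is divided into groups I, II, IIIA and IIIB, and hydrolase activity is known from group IIIA.

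The reaction of XTH enzymes rests on a pair of glutamates with an aspartate between them. The coding stretch of 27 bases around them was read from the RefSeq assembly TAIR10.1. It is shown for several XTH genes named below, because it holds these catalytic residues. Each is written 5′ to 3′ on the coding strand, and the capitals mark the codons of the first glutamate, the aspartate and the second glutamate.
XTH4 (chr2:2764493-2764519, plus strand): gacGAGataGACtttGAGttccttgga
XTH7 (chr4:17776854-17776880, minus strand): gacGAGcttGATtttGAGttcttagga
XTH15 (chr4:8137782-8137808, minus strand): gacGAGataGACtttGAGtttctaggt
XTH17 (chr1:24257682-24257708, plus strand): gatGAGatcGATttcGAGttcttggga
XTH18 (chr4:14826569-14826595, minus strand): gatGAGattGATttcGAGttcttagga
XTH24 (chr4:14820042-14820068, minus strand): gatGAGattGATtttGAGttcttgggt
XTH25 (chr5:23305797-23305823, minus strand): gacGAAatcGATttcGAGtttcttggt
XTH27 (chr2:385891-385917, plus strand): gatGAGataGATtttGAGtttcttggt
XTH31 (chr3:16447882-16447908, minus strand): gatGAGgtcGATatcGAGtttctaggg
This pattern was found in 32 of the 33 XTH genes, the exception being XTH11, whose site was not examined further. It lay in exon 3 of 4 in 18 genes, in exon 2 of 3 in 13 genes, all of group II, and in exon 2 of 2 in XTH22. The codon between the aspartate and the second glutamate was TTT or TTC in all members of groups I and II that held the pattern and in XTH27 and XTH28, and ATA or ATC in XTH29 to XTH33. The 33 coding sequences were 55.4% to 92.2% identical to each other, with a median of 61.2%. The closest pair was XTH17 and XTH18 at 92.2%. XTH19 was 89.2% identical to XTH18 and 88.6% to XTH17, and XTH12 and XTH13 were 89.7% identical to each other. Reads may therefore have been split among such near copies by the authors' counting, and the single values of these genes are uncertain. The 10 alpha-expansins were 60.3% to 81.1% identical. Several XTH genes stand in tandem on the same strand, XTH24, XTH18 and XTH19 on chromosome 4 and XTH12, XTH13, XTH25 and XTH22 on chromosome 5.

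Of the 43 genes, 34 had enough counts to be tested, 24 XTH genes and all 10 alpha-expansins. XTH1, XTH2 and XTH3 had 0 counts in all 9 libraries, which allows up to 3 counts in each. XTH11, XTH12, XTH13, XTH21, XTH26 and XTH29 had 10 to 54 counts over all 9 libraries together. Among these, XTH11 had 1, 3 and 1 counts with AgNPs, 1, 0 and 7 with Ag+, and 20, 16 and 5 in CK. XTH29 had 3, 4 and 1 counts with AgNPs, 14, 4 and 3 with Ag+, and 0, 1 and 0 in CK. These 6 genes were removed by the filter on low counts, and no fold change is given for them. Both tools run without that filter kept them: DESeq2 called XTH29 higher with Ag+ (adjusted p = 0.0495), edgeR did not (adjusted p = 0.0902), and neither called any of the other 5. DESeq2 gave no adjusted p for XTH26 and, between AgNPs and Ag+, for XTH13.

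Levels differed widely within the family. On the scale of CPM, a gene's counts scaled to the size of its library, per kilobase of coding length, averaged over the 9 libraries, XTH4 of group I stood highest at 772 and made up 25.8% of the summed XTH level. XTH24, also known as MERI5B, followed at 639, the touch-inducible XTH22 (TCH4) at 346 and XTH9 at 297, and these 4 genes together held 68.7% of the sum. In group IIIB the highest level was that of XTH27 at 125, and in group IIIA that of XTH31 at 48.6. EXPA6 led the 10 alpha-expansins at 159, followed by EXPA1 at 115. XTH4 averaged 713 ± 281 CPM per kilobase with AgNPs, 637 ± 130 with Ag+ and 966 ± 198 in CK (SD, n = 3 each), and XTH24 averaged 640 ± 78.1, 543 ± 227 and 732 ± 441, so the order of these 2 genes did not hold beyond the spread between libraries.

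**Figure D1:**
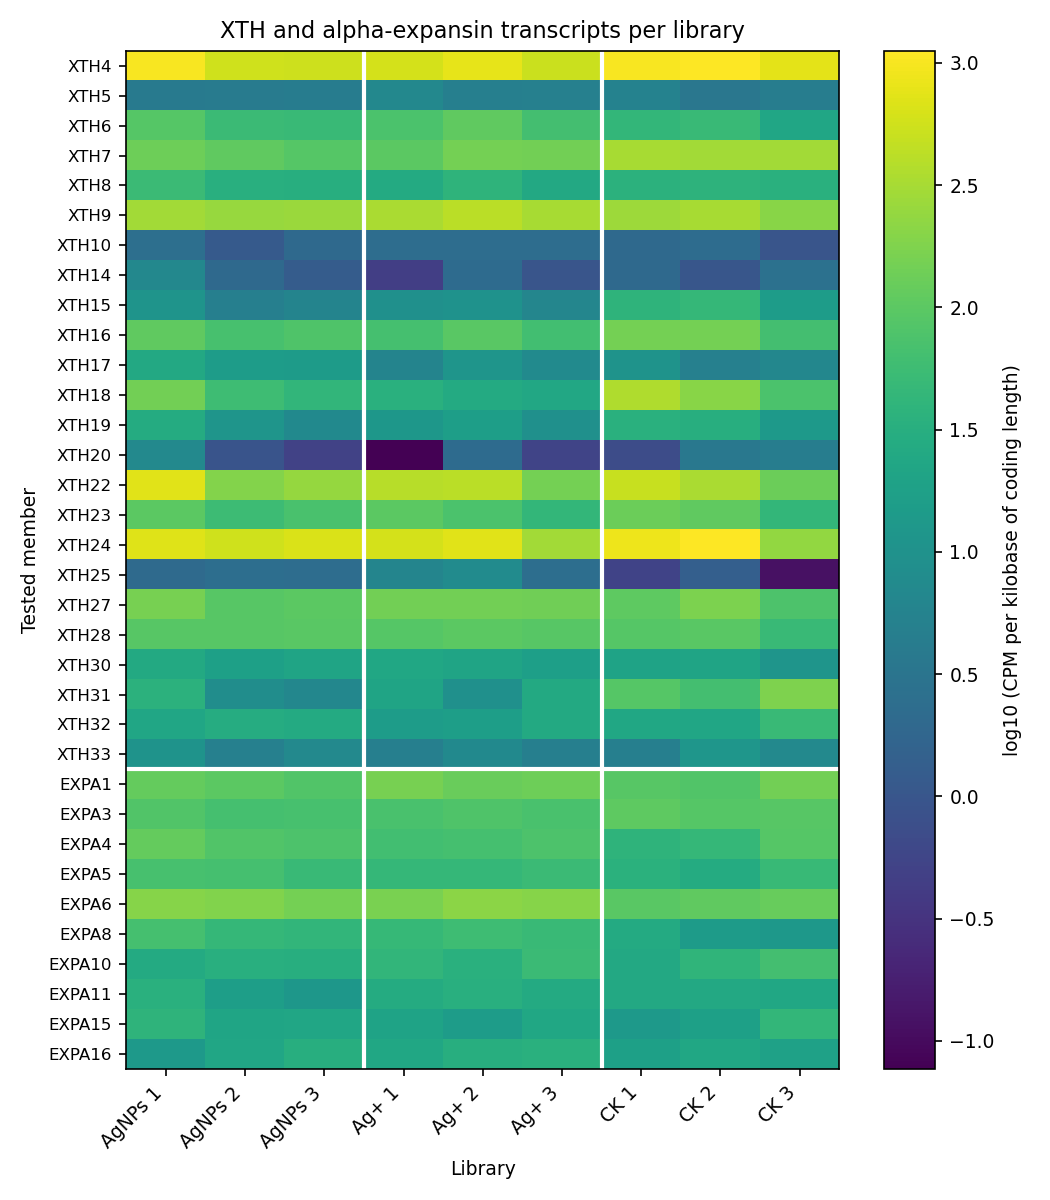
Level of each tested gene in each library, as the log10 of CPM per kilobase of coding length, with AgNPs, Ag+ and CK libraries in columns from left to right, XTH genes above and alpha-expansins below the white line. XTH4 and XTH24 are bright in all 9 libraries, XTH7 is brighter in the 3 CK libraries than in the 6 silver libraries, and XTH25 is darkest in CK 3.

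Total counts per library ranged from 16884010 to 19876151, of which the 43 genes took 0.233% to 0.402%. Summed over the 33 XTH genes, the level was 3350, 1940 and 2080 CPM in AgNPs 1 to 3, 2340, 2790 and 1770 CPM in Ag+ 1 to 3, and 3590, 3630 and 2010 CPM in CK 1 to 3. Libraries of one group therefore differed: AgNPs 1 was the highest AgNPs library for 20 of the 24 tested XTH genes, Ag+ 3 the lowest Ag+ library for 16, and CK 3 the lowest CK library for 16. The 10 alpha-expansins summed to 595, 497 and 446 CPM in AgNPs 1 to 3, 523, 549 and 568 CPM in Ag+ 1 to 3, and 375, 370 and 521 CPM in CK 1 to 3. A list of 13 heat-shock genes summed to 318, 1120 and 1480 CPM in AgNPs 1 to 3, 100, 71.5 and 291 CPM in Ag+ 1 to 3, and 130, 127 and 1010 CPM in CK 1 to 3. Ag+ 3 and CK 3 were thus highest in heat-shock RNA and lowest in summed XTH RNA within their groups, and AgNPs 1 was the reverse. Leaf markers were strong in every library, with 5 of 5 detected. Their sums were 38200 to 50900 CPM with AgNPs, 49800 to 57200 with Ag+ and 29100 to 43800 in CK. With Ag+, edgeR called 1 of the 5 higher than in CK, and all 5 log2 fold changes were positive. With AgNPs it called 0, and 2 of the 5 were positive. Of 19 root markers, 0 to 2 were at 0 in a library; their sums were 2270 to 3330 CPM with AgNPs, 2150 to 2790 with Ag+ and 1890 to 2040 in CK. PYK10, a beta-glucosidase of root endoplasmic reticulum bodies, made up most of these sums, with 1840 to 3200 CPM, and the median of the root list was highest in AgNPs 1 at 3.01 CPM, against 0.645 to 1.43 CPM in the other 8 libraries. Of 7 seed markers, the sums were 5.71 to 15.4 CPM with AgNPs, 3.69 to 39.1 with Ag+ and 0.248 to 1.07 in CK. From these low CK values, edgeR called 2 of the 3 tested seed markers higher with Ag+ and 1 with AgNPs. Their median log2 fold changes were 5.29 and 3.94, and 3.52% and 2.23% of all tested genes were called higher. The part of these differences in the results below was not tested, and in whole leaves fewer cells of a type and less RNA per cell cannot be told apart.

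**Figure D2:**
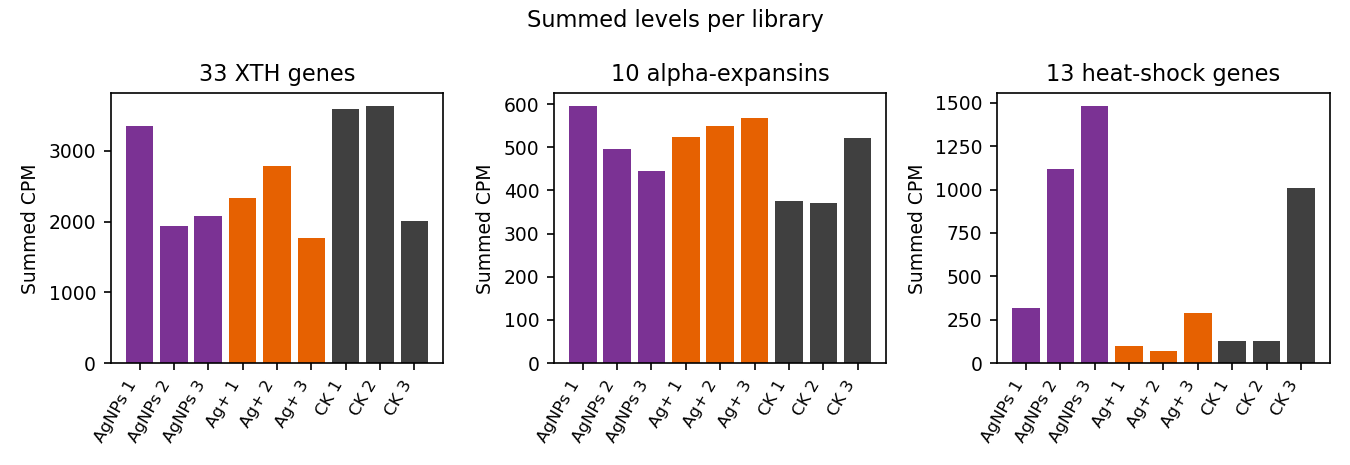
Summed CPM per library of the 33 XTH genes, the 10 alpha-expansins and the 13 heat-shock genes, 1 bar per library and no error bar, with AgNPs, Ag+ and CK libraries from left to right. CK 3, at 1010 CPM of heat-shock RNA, has 2010 CPM of XTH RNA, against 3590 and 3630 in CK 1 and CK 2.

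The comparison of Ag+ with CK asked how leaves given silver ions differed from leaves without silver. Of the 34 tested genes, XTH25, EXPA6 and EXPA8 rose and XTH7, XTH15 and XTH18 fell (edgeR's quasi-likelihood test, adjusted p under 0.05 over all 19889 genes tested). That is 6 genes or 18%, where 5.57% of all tested genes were called (3.52% higher and 2.05% lower). The largest called changes among them were those of XTH25, 8.12-fold higher from 9, 21 and 2 counts in CK 1 to 3, and of XTH18, 7.50-fold lower. The values of 13 genes, 38.2%, did not overlap between the groups (8 higher, 5 lower), against 23.3% of all tested genes (12.7% higher and 10.7% lower). Without single libraries the number of members called was 2 (without Ag+ 1 or CK 2), 1 (without Ag+ 2) and 3 (without CK 1). Without both CK 3 and AgNPs 1 it was 14, of which 7 were higher and 7 lower. Calls over all genes shifted too, from 1108 to 419 to 1372 without single libraries and to 2003 without both. CK 3 had the least summed XTH RNA of the CK libraries, although for XTH31 it was the highest CK library. Lower XTH calls without CK 3 are therefore no separate support, and why the number called rose was not tested. Deviations from the group means correlated at 0.123 to 0.231 between Ag+ and CK libraries of the same number, a pairing that no label states. This pairing was read from the same counts. A fit of these 6 libraries with the replicate number as a block was added after seeing the data, so its calls are no separate support. In it 11 members were called, 4 higher and 7 lower, where 8.47% of all tested genes were called (4.89% higher and 3.58% lower). The block kept the 6 calls and added XTH6 among the higher genes (log2 fold change 1.12, edgeR adjusted p = 0.00483). Among the lower genes it added XTH4 (-0.60, adjusted p = 0.0293), XTH19 (-0.99, adjusted p = 0.0171), XTH31 (-2.54, adjusted p = 0.000325) and XTH32 (-0.68, adjusted p = 0.0296) among the lower ones. The median log2 fold change was 0.00 over the 34 genes, -0.39 over the 24 XTH genes and 0.32 over the 10 alpha-expansins, and -0.009 over all genes.

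For the nanoparticles the same question was asked by setting AgNPs against the same 3 CK libraries, so that the 2 comparisons are not independent. EXPA6 and EXPA8 rose and XTH7 and XTH15 fell, which is 4 genes or 12%, where 3.32% of all tested genes were called (2.23% higher and 1.09% lower). The largest called change upwards was that of EXPA8, 2.83-fold, and downwards that of XTH15, 4.69-fold. Values did not overlap between the groups for 10 genes, 29.4% (6 higher, 4 lower), against 22.6% of all tested genes (11.4% higher and 11.1% lower). The number called was 1 without AgNPs 2, AgNPs 3 or CK 2. Without both CK 3 and AgNPs 1 it was 13, of which 4 were higher and 9 lower. Calls over all genes shifted too, from 660 to 224 to 809 without single libraries and to 1603 without both. Summed XTH RNA was lowest in CK 3 within CK and highest in AgNPs 1 within AgNPs. Lower XTH calls without these libraries are therefore no separate support, and why the number called rose was not tested. The median log2 fold change was -0.05 over the 34 genes, -0.08 over the XTH genes and 0.16 over the alpha-expansins, and -0.003 over all genes.

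**Figure D3:**
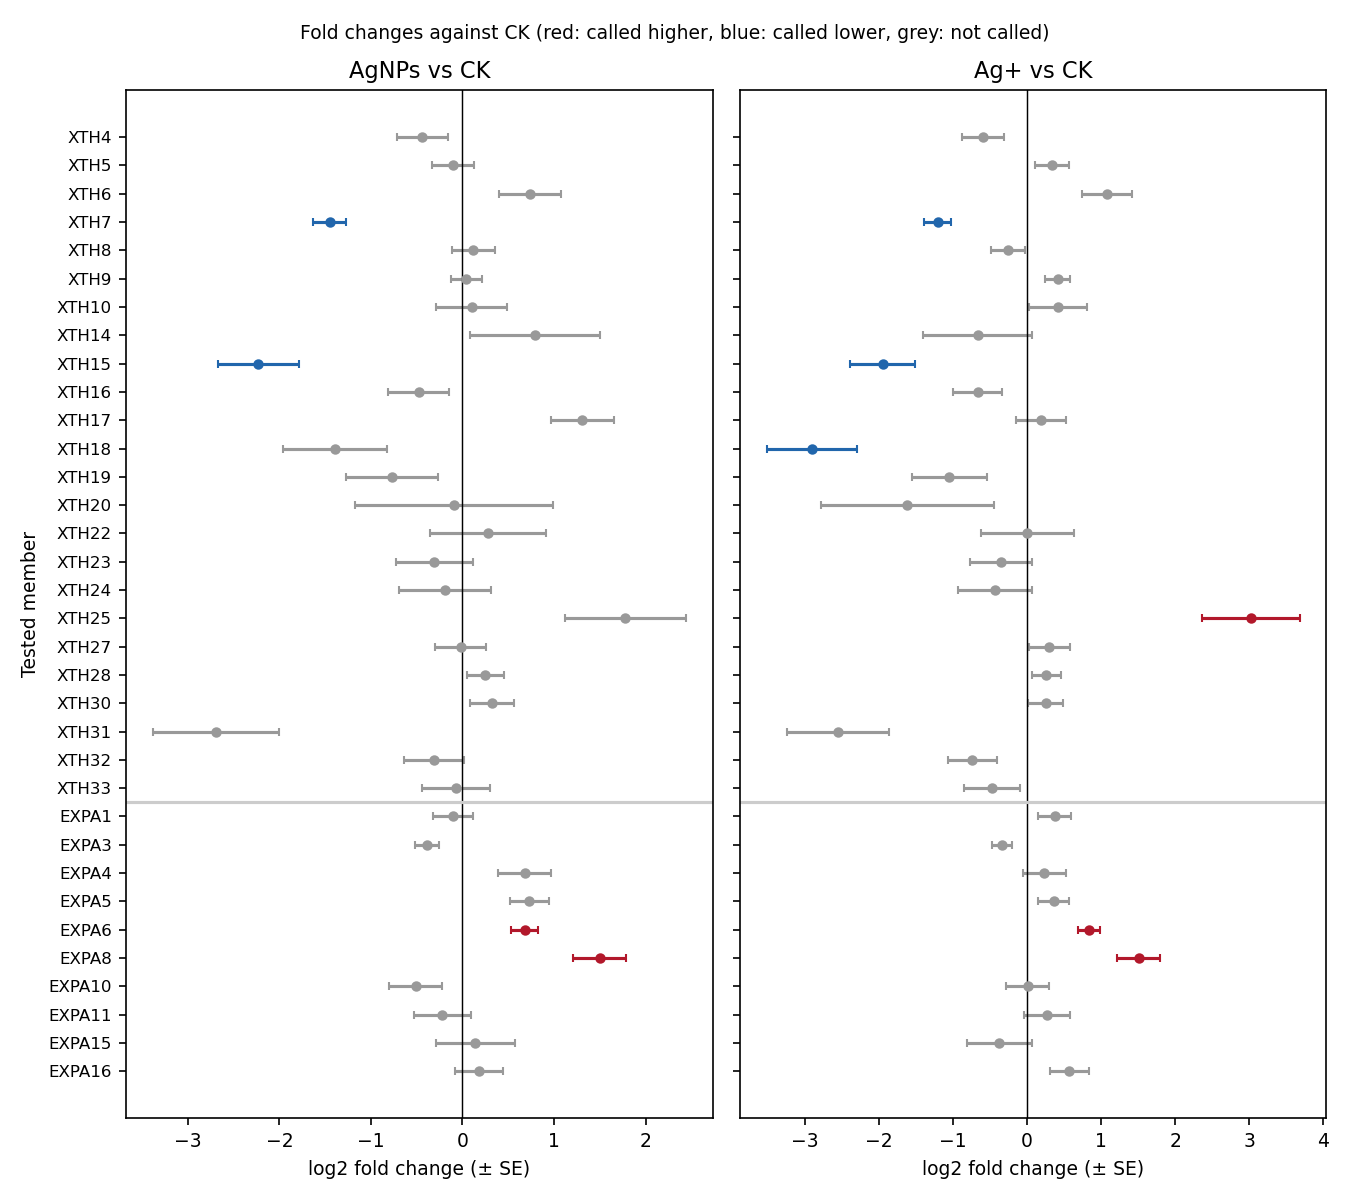
Log2 fold change with its standard error (SE) of each tested gene, AgNPs against CK on the left and Ag+ against CK on the right, from 1 edgeR fit over all 9 libraries; red marks genes called higher, blue genes called lower and grey genes not called. XTH7 and XTH15 lie left of 0 and EXPA6 and EXPA8 right of 0 in both panels, while XTH18 and XTH25 are called with Ag+ alone.

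Group I holds the most abundant member, XTH4, and 1 called gene, XTH7. XTH7 (AT4G37800, chr4:17775370-17777445, minus strand, TAIR10.1) stood at 117, 96.8 and 80.4 CPM in AgNPs 1 to 3, at 88.4, 131 and 127 CPM in Ag+ 1 to 3, and at 282, 258 and 264 CPM in CK 1 to 3. Every silver library lay below every CK library, and the AgNPs and Ag+ values overlapped. With AgNPs XTH7 was 2.73-fold lower (log2 fold change -1.45, SE 0.18, adjusted p = 0.00308 by edgeR), and with Ag+ 2.32-fold lower (-1.21, SE 0.18, adjusted p = 0.00545). Of the members, it alone was called in all 17 alternative fits of AgNPs against CK and all 18 of Ag+ against CK. XTH4 stood at 924, 495 and 486 CPM in AgNPs 1 to 3, at 534, 696 and 472 CPM in Ag+ 1 to 3, and at 920, 999 and 662 CPM in CK 1 to 3. AgNPs 1 lay among the CK libraries and Ag+ 2 above CK 3, and neither difference from CK was called (log2 fold change -0.44, SE 0.28, with AgNPs and -0.60, SE 0.28, with Ag+; edgeR adjusted p = 0.483 and 0.276). Without CK 3 and AgNPs 1, XTH4 was called lower in both comparisons, at -0.97 with AgNPs and -0.76 with Ag+, and with the block it was called lower with Ag+. The remaining 5 tested genes of group I (XTH5, XTH6, XTH8, XTH9 and XTH10) were not called by edgeR, with log2 fold changes of -0.10 to 0.74 with AgNPs and -0.26 to 1.08 with Ag+. The highest of these was XTH6, at 79.6, 46.2 and 45.5 CPM with AgNPs, 65.5, 95.2 and 56.2 CPM with Ag+, and 38.3, 44.6 and 19.6 CPM in CK, whose silver libraries all lay above the CK libraries; its edgeR adjusted p was 0.317 with AgNPs and 0.116 with Ag+. XTH6 was called higher with Ag+ by DESeq2 (1.07, adjusted p = 0.0201), with the block in the fits of 9 and of 6 libraries (1.13 and 1.12), and without CK 3 and AgNPs 1 (0.80, edgeR adjusted p = 0.0418).

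Group II held 3 of the called genes. XTH15 (AT4G14130, chr4:8137020-8138392, minus strand), a gene known from shade-induced petiole growth, stood at 9.53, 4.13 and 5.01 CPM in AgNPs 1 to 3, at 8.22, 8.94 and 5.39 CPM in Ag+ 1 to 3, and at 34.3, 39.4 and 13.5 CPM in CK 1 to 3. The 6 silver libraries lay below CK 3, the lowest CK library. XTH15 was 4.69-fold lower with AgNPs (log2 fold change -2.23, SE 0.44, adjusted p = 0.0313 by edgeR) and 3.86-fold lower with Ag+ (-1.95, SE 0.44, adjusted p = 0.0362). The AgNPs call was lost in 8 of 17 alternative fits, among them those without AgNPs 2, AgNPs 3, Ag+ 1, Ag+ 2, CK 1 or CK 2 (log2 fold changes of -2.24 to -1.94, edgeR adjusted p up to 0.125). The Ag+ call was lost in 9 of 18, among them those without AgNPs 3, any 1 of the Ag+ libraries, CK 1 or CK 2 (-2.09 to -1.69, adjusted p up to 0.119). The annotated gene overlaps AT4G14120, on the opposite strand, by 382 bases, and the strand setting of the counting is not given in the sources used here. AT4G14120 had 41 to 86 counts per library and log2 fold changes of 0.12 in both comparisons.

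XTH18 (AT4G30280, chr4:14825757-14827211, minus strand), known from root elongation, stood at 122, 49.3 and 35.3 CPM in AgNPs 1 to 3, at 28.9, 22.7 and 20.4 CPM in Ag+ 1 to 3, and at 305, 171 and 64.0 CPM in CK 1 to 3. The Ag+ libraries lay below all others, and AgNPs 1 lay above CK 3. XTH18 fell with Ag+ (log2 fold change -2.91, SE 0.61, adjusted p = 0.028 by edgeR) and was not called with AgNPs (-1.39, SE 0.57, adjusted p = 0.257). The Ag+ call was lost without CK 1, CK 2 or any 1 of the Ag+ libraries and with no filter on low counts, at log2 fold changes of -3.06 to -2.29 and adjusted p up to 0.108; without CK 3 and AgNPs 1 the gene was also called with AgNPs (-2.49). Its near copy XTH17 stood at 22.5, 14.1 and 13.5 CPM in AgNPs 1 to 3, at 5.42, 10.6 and 6.86 CPM in Ag+ 1 to 3, and at 9.63, 4.50 and 5.93 CPM in CK 1 to 3. All AgNPs libraries lay above all others, and XTH17 was not called (log2 fold change 1.31, SE 0.34, edgeR adjusted p = 0.0763 with AgNPs; 0.19, SE 0.34, adjusted p = 0.833 with Ag+). It was called with AgNPs without CK 1 (1.67) and by DESeq2 (1.32); its adjusted p with AgNPs lay between 0.00522 and 0.24 over the alternatives.

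XTH25 (AT5G57550, chr5:23304782-23306440, minus strand) was a low gene, at 1.84, 2.07 and 2.02 CPM in AgNPs 1 to 3, 5.09, 6.83 and 2.11 CPM in Ag+ 1 to 3, and 0.447, 1.20 and 0.102 CPM in CK 1 to 3. Every silver library lay above every CK library, and Ag+ 3 lay close to the AgNPs libraries. XTH25 rose with Ag+ (log2 fold change 3.02, SE 0.66, adjusted p = 0.0296 by edgeR) and was not called with AgNPs (1.78, SE 0.66, adjusted p = 0.204). Its call was lost in 6 of 18 alternative fits, among them those without AgNPs 2, AgNPs 3, Ag+ 1, Ag+ 2 or CK 1, at log2 fold changes of 2.64 to 3.02 and adjusted p up to 0.111. Its neighbour XTH22 stood at 627, 164 and 213 CPM with AgNPs, 340, 359 and 130 CPM with Ag+, and 436, 279 and 112 CPM in CK, an overlap of all groups, with log2 fold changes of 0.28 and 0.00. XTH24, the most abundant gene of group II, stood at 572, 448 and 535 CPM with AgNPs, 490, 594 and 236 CPM with Ag+, and 700, 885 and 195 CPM in CK. CK held both the highest and the lowest of its values, and its log2 fold changes of -0.19 with AgNPs and -0.43 with Ag+ were not called (edgeR adjusted p = 0.901 and 0.714). XTH14, XTH16, XTH19, XTH20 and XTH23 were not called in the fit of all 9 libraries, at -0.77 to 0.79 with AgNPs and -1.62 to -0.35 with Ag+. Without CK 3 XTH16 was called lower with Ag+ (-1). Without CK 3 and AgNPs 1, XTH16 (-0.99 with AgNPs, -0.97 with Ag+) and XTH19 (-1.83, -1.36) were called lower, which is no separate support. In all, 8 of the 11 tested genes of group II had a negative log2 fold change with Ag+ and 7 with AgNPs. Among all tested genes, 48.7% were positive with Ag+ and 49.6% with AgNPs. The 11 genes also moved together by library, since AgNPs 1 was the highest AgNPs library for 10 of them and CK 3 the lowest CK library for 8.

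Group IIIA has XTH31 and XTH32. XTH31 (AT3G44990, chr3:16446935-16448844, minus strand), an enzyme known from aluminium sensitivity of roots, stood at 32.1, 7.58 and 5.75 CPM in AgNPs 1 to 3, at 18.4, 8.50 and 22.6 CPM in Ag+ 1 to 3, and at 77.8, 57.1 and 156 CPM in CK 1 to 3. The silver libraries all lay below the CK libraries, and here CK 3 was the highest CK library. The difference was 6.44-fold with AgNPs (log2 fold change -2.69, SE 0.69, adjusted p = 0.0783 by edgeR) and 5.88-fold with Ag+ (-2.56, SE 0.69, adjusted p = 0.07), and missed the threshold in both. It passed without AgNPs 1 in both comparisons (-3.86, adjusted p = 0.0169, with AgNPs and -2.56, adjusted p = 0.0199, with Ag+), with limma voom (-3.03, adjusted p = 0.0367, and -2.55, adjusted p = 0.0461) and with DESeq2 (-2.68, adjusted p = 0.0127, and -2.57, adjusted p = 0.0146). It also passed without CK 3 and AgNPs 1 (-3.34 and -2.03) and, with Ag+, in the fits of 6 libraries without and with the block (-2.56 and -2.54). Over all alternatives its adjusted p lay between 0.0107 and 0.239 with AgNPs and between 0.000325 and 0.21 with Ag+. XTH32 had log2 fold changes of -0.31 with AgNPs and -0.74 with Ag+ and was not called without the block. In group IIIB, XTH27, known from the veins of leaves, stood at 155, 92.3 and 99.4 CPM in AgNPs 1 to 3, 146, 146 and 140 CPM in Ag+ 1 to 3, and 105, 167 and 77.8 CPM in CK 1 to 3. The groups overlapped, and none of the 4 tested genes of group IIIB was called by edgeR, DESeq2 or limma voom or had an unadjusted p under 0.05, with log2 fold changes of -0.07 to 0.32 with AgNPs and -0.48 to 0.30 with Ag+.

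**Figure D4:**
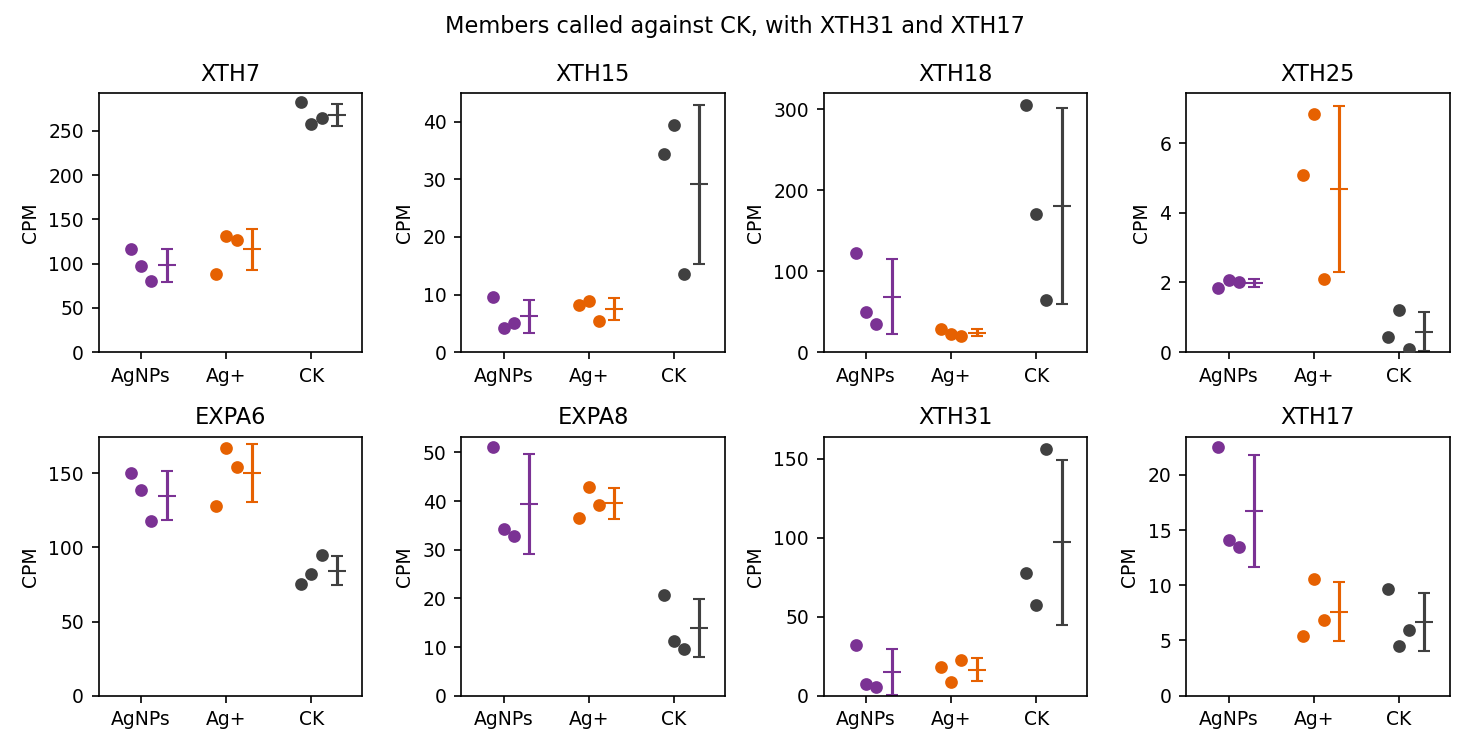
CPM of the 6 called genes and of XTH31 and XTH17 in each library, with AgNPs, Ag+ and CK from left to right; points are libraries, and the bar beside them is the mean ± SD (n = 3). The 6 silver libraries lie below the CK libraries for XTH7, XTH15 and XTH31 and above them for XTH25, EXPA6 and EXPA8.

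Among the alpha-expansins, EXPA6 (AT2G28950, chr2:12431338-12433796, minus strand) stood at 150, 139 and 118 CPM in AgNPs 1 to 3, at 128, 167 and 154 CPM in Ag+ 1 to 3, and at 75.6, 82.1 and 95.1 CPM in CK 1 to 3. EXPA8 (AT2G40610, chr2:16948791-16950705, minus strand) stood at 51.0, 34.2 and 32.8 CPM in AgNPs 1 to 3, at 36.5, 42.8 and 39.2 CPM in Ag+ 1 to 3, and at 20.7, 11.2 and 9.67 CPM in CK 1 to 3. For both genes every silver library lay above every CK library, and the AgNPs and Ag+ values overlapped. EXPA6 was 1.61-fold higher with AgNPs (log2 fold change 0.68, SE 0.15, adjusted p = 0.0345 by edgeR) and 1.78-fold higher with Ag+ (0.83, SE 0.15, adjusted p = 0.0117). EXPA8 was 2.83-fold higher with AgNPs (1.50, SE 0.29, adjusted p = 0.0248 by edgeR) and 2.85-fold higher with Ag+ (1.51, SE 0.29, adjusted p = 0.0179). The AgNPs call of EXPA6 was lost in 7 of 17 alternative fits, including those without any 1 of the AgNPs libraries, Ag+ 3, CK 1 or CK 2, at 0.60 to 0.78 and adjusted p up to 0.128. The Ag+ call of EXPA6 was lost without Ag+ 2 or CK 2 (0.75 and 0.79). The AgNPs call of EXPA8 was lost without AgNPs 2, AgNPs 3 or CK 2 and in the fit of 6 libraries (1.38 to 1.62, adjusted p up to 0.112), and its Ag+ call without Ag+ 1, Ag+ 2 or CK 2 (1.35 to 1.56, adjusted p up to 0.0747).

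The other 8 alpha-expansins were not called by edgeR. EXPA5 stood at 53.0, 51.0 and 39.4 CPM with AgNPs, 34.7, 35.0 and 41.3 CPM with Ag+, and 27.1, 21.3 and 38.0 CPM in CK, and its AgNPs libraries lay above the CK libraries (log2 fold change 0.73, SE 0.21, edgeR adjusted p = 0.094; DESeq2 adjusted p = 0.0283). EXPA3 stood at 66.0, 52.8 and 53.5 CPM with AgNPs, 56.5, 63.7 and 57.3 CPM with Ag+, and 82.0, 69.7 and 73.4 CPM in CK, so that every silver library lay below every CK library (log2 fold changes of -0.39 and -0.34, SE 0.13 each, edgeR adjusted p = 0.143 and 0.166). EXPA1, known from guard cells and leaf growth, stood at 94.8, 83.2 and 69.8 CPM with AgNPs, 131, 102 and 112 CPM with Ag+, and 75.7, 68.2 and 122 CPM in CK. Without CK 3 EXPA1 was called higher with Ag+ (0.65) and EXPA4 and EXPA5 were called higher with AgNPs (1.12 and 0.99). Without AgNPs 1 EXPA11 was called lower with AgNPs than in CK (-0.75). Without both CK 3 and AgNPs 1, EXPA3 and EXPA11 were called lower with AgNPs (-0.51 and -0.79). In that fit EXPA4 and EXPA5 were called higher with AgNPs (0.9 each), and EXPA1, EXPA4 and EXPA5 with Ag+ (0.67, 0.67 and 0.61). CK 3, which was low for many XTH genes, was the highest CK library for 6 of the 10 alpha-expansins. EXPA10, known to promote leaf growth, had log2 fold changes of -0.51 with AgNPs and 0.01 with Ag+.

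XTH7, XTH15, EXPA6 and EXPA8 were called in both comparisons with CK, which share their CK libraries. The 300 bases before the annotated start of each were read from TAIR10.1 and are shown because these are the genes that moved with both forms of silver. They were searched on both strands for CGTGTG and CGTGCG (brassinosteroid response), CACGTG (the G-box), TGTCTC and TGTCGG (auxin response) and TTGAC (the W-box, bound by WRKY factors). Each sequence is written 5′ to 3′ on the strand of its gene, here the minus strand, and capitals mark the matches; these windows hold no other annotated gene.
XTH7 (chr4:17777446-17777745): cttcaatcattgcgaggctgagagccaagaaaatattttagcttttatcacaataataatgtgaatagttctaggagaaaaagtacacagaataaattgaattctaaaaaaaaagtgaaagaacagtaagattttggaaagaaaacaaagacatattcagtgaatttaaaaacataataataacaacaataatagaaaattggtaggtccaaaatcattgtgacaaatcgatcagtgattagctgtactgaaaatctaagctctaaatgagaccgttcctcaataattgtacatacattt
XTH15 (chr4:8138393-8138692): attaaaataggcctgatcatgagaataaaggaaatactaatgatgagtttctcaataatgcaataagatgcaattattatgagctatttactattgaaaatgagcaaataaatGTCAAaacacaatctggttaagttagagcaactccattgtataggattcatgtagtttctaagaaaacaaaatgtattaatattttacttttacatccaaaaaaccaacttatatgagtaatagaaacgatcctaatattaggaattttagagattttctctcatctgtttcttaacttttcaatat
EXPA6 (chr2:12433797-12434096): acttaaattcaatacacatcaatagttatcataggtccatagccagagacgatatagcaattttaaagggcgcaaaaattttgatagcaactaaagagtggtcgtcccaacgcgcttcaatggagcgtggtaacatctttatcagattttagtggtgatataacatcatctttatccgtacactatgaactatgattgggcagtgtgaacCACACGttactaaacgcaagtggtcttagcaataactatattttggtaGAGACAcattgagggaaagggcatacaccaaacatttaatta
EXPA8 (chr2:16950706-16951005): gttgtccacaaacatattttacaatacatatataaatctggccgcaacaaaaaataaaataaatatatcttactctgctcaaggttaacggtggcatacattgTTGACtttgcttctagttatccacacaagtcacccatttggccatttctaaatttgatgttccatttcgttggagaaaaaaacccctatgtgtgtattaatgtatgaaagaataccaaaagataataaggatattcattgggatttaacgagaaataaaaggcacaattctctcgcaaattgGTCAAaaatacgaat
XTH7 held none of the 6 motifs, XTH15 held 1 TTGAC, read here as its reverse complement, EXPA6 held 1 CGTGTG and 1 TGTCTC, both as reverse complements, and EXPA8 held 2 TTGAC, 1 on each strand. No 2 of these matches overlapped. Over all 43 genes, CGTGTG stood in 14.0% of the windows against 6.11% of 27443 windows of the same length before nuclear protein-coding genes, TGTCTC in 14.0% against 13%, TGTCGG in 2.33% against 4.91% and TTGAC in 44.2% against 50.4%. CGTGCG and CACGTG were in 0 of the 43 windows, against 1.78% and 7.09% of all windows. These are matches of letters in a short window and were not tested.

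The comparison of AgNPs with Ag+ asked whether the 2 forms of silver differed. None of the 34 genes was called by edgeR, where 0.684% of all tested genes were called (0.508% higher and 0.176% lower); 2 genes, XTH17 and XTH18, had an unadjusted p under 0.05, as had 14.8% of all genes. DESeq2 called 1 gene, XTH17 (log2 fold change 1.14, adjusted p = 0.0327; 0.0327 to 0.384 over the alternatives), and limma voom called 0. Without both CK 3 and AgNPs 1, EXPA1 and EXPA11 were called lower with AgNPs (-0.59 and -1.02), EXPA11 also without AgNPs 1 alone (-1.02). Values did not overlap for 7 genes, 20.6%, XTH17 and XTH18 higher with AgNPs and XTH5, XTH9, XTH25, EXPA1 and EXPA10 lower, against 22.1% of all tested genes (10.4% higher and 11.7% lower). The median log2 fold change was 0.02, and -0.013 over all genes. The 95% interval of the difference on the log2 scale was -0.63 to 0.16 for XTH7, -1.29 to 0.72 for XTH15, -0.47 to 0.18 for EXPA6 and -0.63 to 0.62 for EXPA8. It was 0.19 to 2.84 for XTH18 and 0.36 to 1.89 for XTH17, without adjustment over genes, and -2.55 to 0.07 for XTH25. XTH18 was called with Ag+ and not with AgNPs, and the difference between the forms was not called (log2 fold change 1.52, SE 0.58, edgeR adjusted p = 0.273). The same held for XTH25 (-1.24, SE 0.58, adjusted p = 0.363).

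Genes that make and trim xyloglucan were followed beside the members. Of 14 tested genes of xyloglucan synthesis, 1 (7.14%) was higher with AgNPs and 2 (14.3%) were lower with Ag+. Of all tested genes, 3.32% were called with AgNPs and 5.57% with Ag+. XLT2, a galactosyltransferase of xyloglucan, stood at 37.6, 38.6 and 32.1 CPM with AgNPs, 28.4, 23.9 and 28.1 CPM with Ag+, and 15.9 to 22.4 CPM in CK. All silver libraries lay above CK, and XLT2 rose with AgNPs (log2 fold change 0.96, SE 0.15, edgeR adjusted p = 0.0105; 0.53, adjusted p = 0.0825 with Ag+). XXT5, a xylosyltransferase, and MUR3, the galactosyltransferase that acts beside XLT2, fell with Ag+ (log2 fold changes of -0.55 and -0.46, edgeR adjusted p = 0.0214 and 0.0322). Of 6 tested genes of xyloglucan trimming, 1 (16.7%), XYL1, the alpha-xylosidase, rose with Ag+, at 505, 544 and 538 CPM against 374, 310 and 373 CPM in CK (0.59 on the log2 scale, SE 0.12, edgeR adjusted p = 0.0193), and 0 were called with AgNPs by edgeR or limma voom (1 by DESeq2, 1 at an unadjusted p under 0.05). None of the 9 genes for primary wall cellulose was called by edgeR. An unadjusted p under 0.05 stood for 2 of them with AgNPs and 3 with Ag+, as for 17% and 19.2% of all tested genes. DESeq2 called 0 and 1 of the 9, and limma voom 0 and 0. All 9 log2 fold changes were negative with both agents, at -0.73 to -0.03 with AgNPs and -0.43 to -0.01 with Ag+. Among all tested genes, 49.6% were positive with AgNPs and 48.7% with Ag+, and the 2 comparisons share their CK libraries. The call of XLT2 was lost without AgNPs 2 (0.91) and that of XXT5 without any 1 of the Ag+ libraries or CK 2 (-0.58 to -0.51). That of MUR3 was lost without AgNPs 2, AgNPs 3, any 1 of the Ag+ libraries or CK 1 and in the fits of 6 libraries without and with the block (-0.50 to -0.42), and that of XYL1 was lost without Ag+ 2, Ag+ 3 or CK 2 (0.48 to 0.58).

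Of 12 tested expansins outside the set of 10, 1 was called with AgNPs (8.33%) and 2 with Ag+ (16.7%), all higher, where 2.23% and 3.52% of all tested genes were called higher. EXLB1, an expansin-like gene of unknown activity, stood at 12, 9.94 and 10 CPM in AgNPs 1 to 3, 7.64, 10.6 and 8.56 CPM in Ag+ 1 to 3, and 3.37, 3.98 and 3.38 CPM in CK 1 to 3. Every silver library lay above every CK library. It was 2.97-fold higher with AgNPs (log2 fold change 1.57, SE 0.18, adjusted p = 0.00233 by edgeR) and 2.50-fold higher with Ag+ (1.32, SE 0.18, adjusted p = 0.00395). It was called in all 17 alternative fits of AgNPs against CK and all 18 of Ag+ against CK. EXPA9 rose with Ag+, at 33.9, 25.7 and 25.5 CPM against 12, 13.1 and 20.3 CPM in CK (0.91, SE 0.20, edgeR adjusted p = 0.0315), a call lost in the fits of 6 libraries without and with the block and without AgNPs 2, AgNPs 3, any 1 of the Ag+ libraries, CK 1 or CK 2 (0.76 to 0.98).

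The SAUR19 subfamily comprises small auxin-induced proteins that keep the proton pumps active by inhibiting the phosphatases that switch them off. Their genes were low, and all 6 of SAUR19 to SAUR24 rose with AgNPs and 5 of 6 with Ag+, where SAUR21 missed the threshold (log2 fold change 1.22, SE 0.35, edgeR adjusted p = 0.0774; 0.0211 with the block in the fit of 6 libraries). Of all tested genes, 2.23% were called higher with AgNPs and 3.52% with Ag+. SAUR19 stood at 2.52, 3.00 and 3.68 CPM in AgNPs 1 to 3, 3.46, 2.83 and 2.52 CPM in Ag+ 1 to 3, and 1.09, 0.626 and 0.716 CPM in CK 1 to 3. SAUR23 stood at 2.77, 4.53 and 4.26 CPM in AgNPs 1 to 3, 2.41, 2.5 and 2.70 CPM in Ag+ 1 to 3, and 0.794, 0.512 and 1.13 CPM in CK 1 to 3. For each of the 6 genes every silver library lay above every CK library, as for 11.4% of all tested genes with AgNPs and 12.7% with Ag+. Log2 fold changes were 1.31 to 2.24 with AgNPs and 1.17 to 1.94 with Ag+, with medians of 1.69 and 1.44. The coding sequences of these genes are 88.6% to 95.9% identical, so reads may have been split among them and the 6 values are not independent. With AgNPs the number called was 1 to 3 without AgNPs 2, AgNPs 3, Ag+ 1, Ag+ 2, CK 1 or CK 2, and with Ag+ it was 1 to 3 without AgNPs 2, any 1 of the Ag+ libraries, CK 1 or CK 2.

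**Figure D5:**
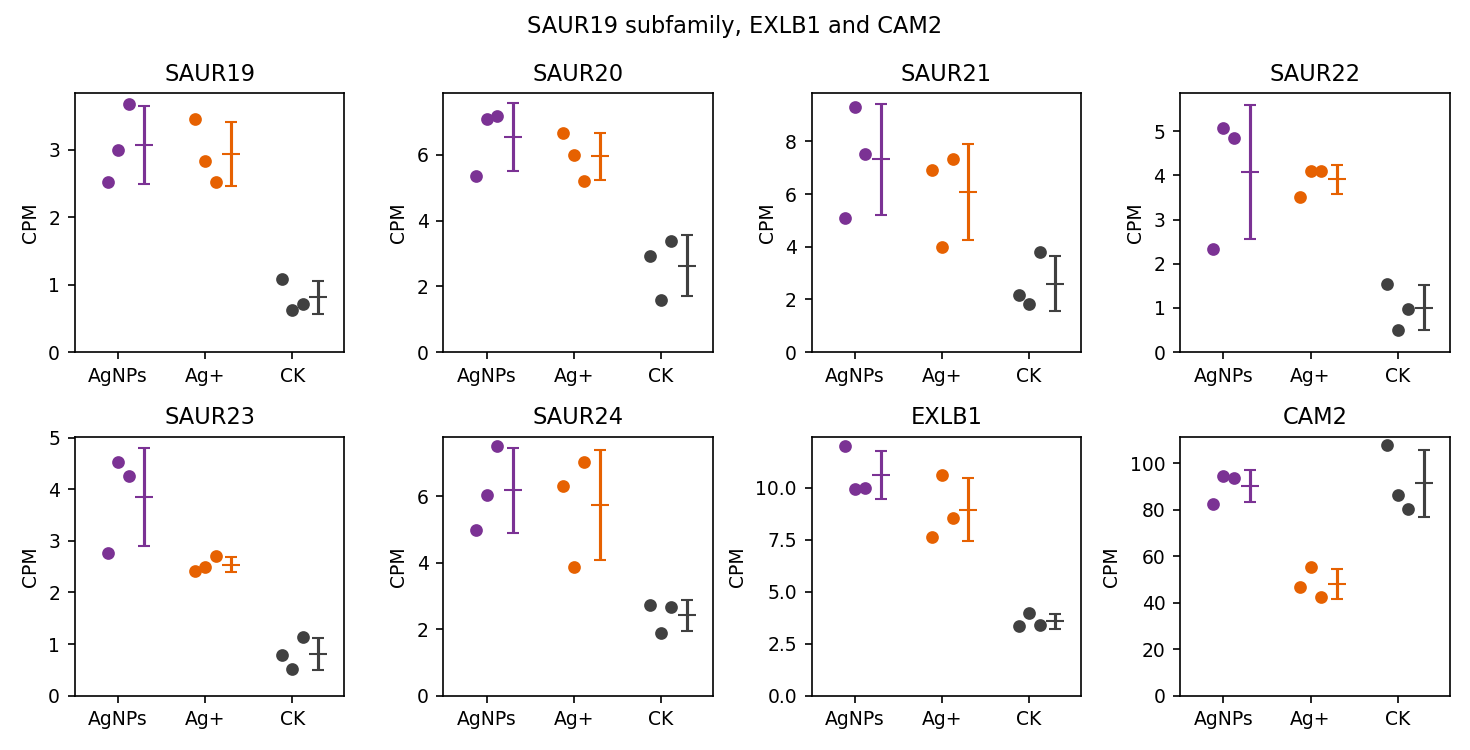
CPM of the 6 genes of the SAUR19 subfamily, EXLB1 and CAM2 in each library, with AgNPs, Ag+ and CK from left to right; points are libraries, and the bar beside them is the mean ± SD (n = 3). The silver libraries lie above the CK libraries for SAUR19 to SAUR24 and EXLB1, and for CAM2 the Ag+ libraries lie below all others.

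Of 8 tested genes for plasma membrane proton pumps, AHA3 rose with Ag+, at 99.5, 85.2 and 92.3 CPM against 62.4, 58.6 and 68.0 CPM in CK (a log2 fold change of 0.55, SE 0.11, edgeR adjusted p = 0.0179), and 0 were called with AgNPs by edgeR, DESeq2 or limma voom (2 at an unadjusted p under 0.05). Over all tested genes, 3.52% were called higher and 2.05% lower with Ag+, and 17% had an unadjusted p under 0.05 with AgNPs. Between the forms, 0.508% were called higher with AgNPs than with Ag+. The call of AHA3 was lost without Ag+ 1, Ag+ 3, CK 1 or CK 2 (0.48 to 0.55). Touch genes were followed because XTH22 belongs to the same touch-induced set. Of CAM2, CML24 and CML12, which encode calmodulin and calmodulin-like calcium sensors, CAM2 stood at 82.3, 94.5 and 93.5 CPM with AgNPs, 46.7, 55.3 and 42.6 CPM with Ag+, and 108, 86.3 and 80.3 CPM in CK. Its Ag+ libraries lay below all others. CAM2 fell with Ag+ against CK (-0.92 on the log2 scale, SE 0.15, edgeR adjusted p = 0.00763), had -0.02 with AgNPs against CK, and was higher with AgNPs than with Ag+ (0.90, adjusted p = 0.0362), a difference lost without AgNPs 2, AgNPs 3 or any 1 of the Ag+ libraries (0.82 to 1.01). CML24 and CML12 were not called, and XTH22 had a log2 fold change of 0.28 between AgNPs and Ag+ (edgeR adjusted p = 0.869).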

How the data were processed

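Per the labels' protocols, TRIzol was used to extract total RNA, ribosomal RNA was removed, and libraries were sequenced as paired reads of 150 bp in a single lane, and no label names a batch. Alignment with HISAT2 to the build TAIR10 is taken from the submitters' processing notes. The sources used here do not give how reads were assigned to genes, or the strand setting and annotation. The authors deposited 1 table of raw counts, whole numbers for 38202 genes in 9 columns, with no scaling.

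All 9 libraries were fitted together by edgeR's quasi-likelihood test (edgeR 4.0.16, R 4.3.3, robust, filterByExpr, TMM factors, group as the only term), two-sided, with Benjamini-Hochberg adjustment over the 19889 genes tested; a gene was called below 0.05. CPM used TMM-scaled library sizes, and an SE is the absolute log2 fold change over the root of its F statistic. Groups of 3 were compared, and an overlap means that the ranges of 2 groups meet. The fit was checked on simulated counts, for Ag+ against CK, with changes placed in genes that were not low. It recovered 60 of 100 genes changed 2-fold and 95 of 100 changed 4-fold. There were 14 false calls with 19727 genes tested. Libraries of one group differed by 8.99 to 64.2 in chi-square per degree of freedom, which is more than counting noise and does not show whether they came from separate cultures. Deviations from the group means correlated at 0.123, 0.186 and 0.231 between Ag+ and CK libraries of the same number and at -0.182 to 0.049 between those of different numbers. These numbers were therefore taken to pair, although no label states it and the pairing comes from the same counts that were then fitted. Libraries of different numbers also correlated, at 0.291 for AgNPs 1 with Ag+ 2 and -0.259 for AgNPs 3 with Ag+ 2, so the pairing is uncertain. Same-numbered AgNPs libraries correlated at -0.114 to -0.024 with CK and -0.206 to 0.122 with Ag+ and were not taken to pair. The limit for a count of 0 covers counting error only.

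The reference assembly TAIR10.1 was matched by locus alone and gave coding lengths, coordinates and sequences; it is not the build of the counts. Coding identity was measured over the shorter sequence. All called genes were named, with the most abundant member of each XTH group and of the alpha-expansins; XTH17, XTH31 and the other uncalled genes with values were added after their values were seen. The members, lists and tests were chosen with earlier results of these data known. Alternatives were limma voom (3.58.1), DESeq2 (1.42.0), other scalings and filters, a replicate block, fits of 6 libraries, a block in the 6 Ag+ and CK libraries, and fits without single libraries.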

Additional observations from a re-analysis of the deposited data

How the results depend on the processing

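Of 176 alternative values of called genes among the 43 members, 131 were still called, 45 were not and 0 reversed; of 1592 values of genes not called, 43 became called, all in the direction first seen. DESeq2 called 1885 genes for Ag+ against CK, 1425 for AgNPs against CK and 845 for AgNPs against Ag+, and 7 and 1 members in the AgNPs comparisons with CK and with Ag+. limma voom called 47 genes for AgNPs against Ag+. Fits of only the 6 libraries compared called 351 and 408 genes for AgNPs against CK and against Ag+, 1 member and 4 pathway genes for AgNPs against CK, and 2 and 3 SAUR19 genes for AgNPs and Ag+ against CK. With both CK 3 and AgNPs 1 left out, 2003, 1603 and 1276 genes were called for Ag+ against CK, AgNPs against CK and AgNPs against Ag+, 14, 13 and 2 members, and 4 pathway genes for AgNPs against Ag+, where DESeq2 also called 4 and upper-quartile scaling 2. Leaving out single libraries gave 419 to 1372, 224 to 809 and 0 to 444 genes in the same order of comparisons, 1 to 8, 1 to 6 and 0 to 1 members, 3 to 13, 3 to 8 and 0 to 2 pathway genes, and 1 to 5, 1 to 6 and 0 SAUR19 genes. The cause of these shifts was not tested; the pathway and SAUR19 alternatives were chosen after seeing the data. With a replicate block in the 6 Ag+ and CK libraries, whose numbers were taken to pair from these counts, 1639 genes, 11 members, 12 pathway genes and 6 SAUR19 genes were called. With a replicate block in all 9 libraries, of which AgNPs were not taken to pair, 1238, 668 and 236 genes, 7, 4 and 0 members and 12, 7 and 1 pathway genes were called. With that block XTH6 was gained with Ag+ (1.13) and SAUR22 lost with AgNPs (1.99). With 3 libraries a group, a p above the threshold does not show that a gene did not differ.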

Other observations

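Some low genes stood highest in AgNPs 1; they were picked after their values were seen. XTH14, a group II gene of roots, had 5.90 CPM in AgNPs 1 against 0.392 to 2.35 CPM in the other 8 libraries, and XTH20 had 5.90 CPM in AgNPs 1, 1.83 CPM in Ag+ 2, 3.07 and 3.84 CPM in CK 2 and CK 3, and 0.0653 to 0.787 CPM in the other 5 libraries. The root-hair expansins EXPA7 and EXPA18 each had 2.58 CPM in AgNPs 1, against 0.228 to 1.07 CPM and 0.160 to 0.870 CPM in the other 8 libraries. Root markers had their highest sum, 3330 CPM, in the same library. None of these 4 genes was called by edgeR in any comparison, and the part of the root markers in their values was not tested.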
